A study of Rattus norvegicus with 16 samples.

Results

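The genes described here are the urokinase system and a set of secreted factors often measured in senescent cells: the protease gene Plau, its receptor gene Plaur, the inhibitor gene Serpinb2, the growth factor gene Hgf, the metalloproteinase genes Mmp9, Mmp12 and Mmp14, and the inhibitor genes Timp1 and Timp2. They were chosen by name. Of these 9 genes, 8 were found by symbol among the 21842 symbols counted, and Timp2 was not analysed here. RNA was sequenced in bulk from microglia, the macrophages that live in brain tissue, of male Wistar (Hsd/Cpb:WU) rats, sorted from the whole brain by a gate on CD11b (high), CD45 (intermediate) and DAPI (negative). Of the 16 libraries, 4 each came from rats given 14 Gy of X-rays and LPS, 14 Gy and PBS, sham irradiation and LPS, and sham irradiation and PBS, with the intraperitoneal injection 6 weeks after irradiation. LPS is lipopolysaccharide, a bacterial cell wall component, and PBS is its vehicle. The labels name neither the age of the rats nor the animal behind each library, so p-values measure the spread between these libraries.

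Urokinase, the product of Plau, cuts plasminogen into plasmin, a protease that degrades fibrin and matrix proteins. Its receptor uPAR, encoded by Plaur, holds it at the cell surface, and the serpin encoded by Serpinb2 blocks it. HGF is secreted as an inactive precursor that serine proteases cut, and it signals through the receptor MET. Matrix metalloproteinases cut collagens, elastin and other secreted proteins, and the TIMP proteins inhibit them. Cells in senescence, a lasting arrest of division, are known to secrete many of these proteins.

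The promoters of Plau, Plaur, Hgf and Mmp12 are shown because these genes were 10.5- to 20.9-fold higher in irradiated than in sham rats given PBS. Sequences were taken from RefSeq, build GRCr8, with 250 bases before and 50 bases after the start of the gene. They cover chr15:3511938-3512237 on the minus strand for Plau, chr1:89181113-89181412 on the plus strand for Plaur, chr4:19700418-19700717 on the minus strand for Hgf and chr8:12866402-12866701 on the plus strand for Mmp12. Each runs 5′ to 3′ in the direction of its gene, and capitals mark a match to the AP-1 motif TGANTCA.
Plau: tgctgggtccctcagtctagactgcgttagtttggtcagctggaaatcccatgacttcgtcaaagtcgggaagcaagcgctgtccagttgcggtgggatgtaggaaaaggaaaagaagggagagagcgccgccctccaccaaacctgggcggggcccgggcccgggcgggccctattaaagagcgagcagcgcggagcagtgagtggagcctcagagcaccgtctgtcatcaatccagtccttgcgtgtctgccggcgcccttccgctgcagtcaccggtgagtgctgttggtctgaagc
Plaur: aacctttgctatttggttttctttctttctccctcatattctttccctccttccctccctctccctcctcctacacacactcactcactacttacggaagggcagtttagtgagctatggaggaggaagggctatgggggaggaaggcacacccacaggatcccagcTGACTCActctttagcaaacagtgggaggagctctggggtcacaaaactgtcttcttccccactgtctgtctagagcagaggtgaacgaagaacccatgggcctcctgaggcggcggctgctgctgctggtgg
Hgf: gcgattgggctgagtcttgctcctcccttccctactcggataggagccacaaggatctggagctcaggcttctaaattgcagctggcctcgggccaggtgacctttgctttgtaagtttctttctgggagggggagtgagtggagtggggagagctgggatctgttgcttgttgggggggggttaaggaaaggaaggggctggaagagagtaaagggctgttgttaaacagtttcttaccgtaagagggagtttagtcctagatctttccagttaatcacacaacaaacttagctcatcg
Mmp12: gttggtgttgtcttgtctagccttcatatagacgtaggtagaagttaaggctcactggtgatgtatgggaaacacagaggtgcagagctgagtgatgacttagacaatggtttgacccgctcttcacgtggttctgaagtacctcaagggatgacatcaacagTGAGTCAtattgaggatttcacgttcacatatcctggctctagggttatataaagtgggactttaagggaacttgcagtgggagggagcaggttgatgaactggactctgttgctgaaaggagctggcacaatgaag
The AP-1 motif, searched on both strands, lay 83 bases before the start of Plaur and 87 bases before that of Mmp12, and the windows of Plau and Hgf held no match. Of 33469 RefSeq promoters of 300 bases, 7.33% held it. The PU.1 motif GAGGAAG, present in 12.4% of promoters, lay 128 and 111 bases before the start of Plaur, and TATAAA, present in 14.2%, lay 39 bases before that of Mmp12. Among the other members with a promoter in the table, Serpinb2 had an AP-1 match 189 bases before its start. In all, 6 motifs were searched in the promoters of 7 members. The NF-kB motif (in 7.51% of promoters), the STAT motif (8.87%) and the p53 half-site (7.98%) matched in none of them. These matches and misses are a description of letters and not of bound sites.

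Library totals were 18997145 to 62745496 counts in irradiated rats given LPS, 14309458 to 25015047 in irradiated rats given PBS, 16573558 to 19785105 in sham rats given LPS and 16849603 to 22482126 in sham rats given PBS. Levels are CPM, counts scaled to a common library total with TMM factors, and are not corrected for gene length, so they are compared between groups and not between genes. The microglial genes P2ry12 and Tmem119 were present in every library. The summed level of 11 microglial markers was 15060 to 19472 CPM in irradiated LPS libraries, 21401 to 27260 CPM in irradiated PBS libraries, 37035 to 41120 CPM in sham LPS libraries and 47313 to 51291 CPM in sham PBS libraries, with Siglech at 0 in all 4 sham LPS libraries. In the same group order, 11 markers of border-associated macrophages summed to 3158 to 4340, 1336 to 1657, 480 to 1067 and 400 to 469 CPM, and 12 monocyte markers to 773 to 1203, 591 to 723, 336 to 471 and 216 to 300 CPM; no marker of either list was at 0 throughout a group. Of 15 T and NK cell markers, 13 rose and 1 fell in irradiated against sham rats given PBS (median log2 2.86), beside 11.5% and 9.91% of all genes. In those given LPS 12 rose and 1 fell (median log2 2.64), beside 15.1% and 12.6%. Their summed level was 769 to 1306 CPM in irradiated LPS and 318 to 407 CPM in irradiated PBS libraries, against 588 to 778 CPM in sham LPS and 446 to 476 CPM in sham PBS libraries, with no marker at 0 throughout a group. The macrophage and monocyte sums, and most single T and NK cell markers, thus moved with irradiation in the same direction as the members called. Of 9 tested neutrophil markers, 8 rose and 0 fell with irradiation in rats given LPS (median log2 3.88), beside 15.1% and 12.6% of all genes. In rats given PBS, 1 rose and 1 fell, beside 11.5% and 9.91%. The part of these cell types in the results of the members was not tested. In bulk RNA, more cells of a type and more RNA per cell cannot be told apart. Irradiated LPS library 1 stood apart in its neutrophil markers and irradiated libraries numbered 1 in Mbp, the myelin basic protein gene (300 CPM with LPS and 264 CPM with PBS, against 38.1 to 105 CPM in the other libraries); values that rest on the first are given with and without it.

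Plau, Plaur, Hgf, Mmp12 and Timp1 rose in irradiated rats given PBS, and all 7 tested members rose in irradiated rats given LPS, each against sham rats with the same injection. LPS raised Plaur, Mmp14 and Timp1 in both irradiated and sham rats, raised Mmp9 in irradiated rats, and was accompanied by lower Hgf in sham rats. These Mmp9 and Hgf calls, and the Mmp14 call between irradiated and sham rats given LPS, were each lost in some fits with a library left out, as given below. Plau and Mmp12 did not pass the test between LPS and PBS in either setting. The test was edgeR's quasi-likelihood test on counts of 13608 genes, called at a Benjamini-Hochberg adjusted p under 0.05.

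Irradiated against sham rats given PBS, 5 of 7 tested members rose and 0 fell, with a median log2 fold change of 3.39. Of all genes 21.4% were called, 11.5% higher and 9.91% lower, and their median was -0.005. Scaling by library totals alone raised the median of all genes in this comparison by 0.16 and turned the split of calls to 2331 higher and 725 lower, against 1566 higher and 1348 lower with TMM. Irradiated against sham rats given LPS, 7 of 7 rose, with a median of 4.16, where 27.7% of all genes were called, 15.1% higher and 12.6% lower, and the median of all genes was 0.014. LPS against PBS in irradiated rats, 4 rose and 0 fell, with a median of 1.10, beside 31.4% of all genes called (17.0% higher, 14.5% lower) and an all-gene median of -0.021. Library totals alone shifted that all-gene median by -0.12 and gave 1784 higher and 2768 lower calls, against 2309 and 1968 with TMM. LPS against PBS in sham rats, 3 rose and 1 fell, with a median of -0.49, beside 29.6% of all genes called (15.2% higher, 14.5% lower) and an all-gene median of -0.010. Groups did not overlap, with the first higher, for 6 of 7 members in irradiated against sham rats given PBS (13.9% of all genes), 7 in those given LPS (15.0%), 4 for LPS in irradiated rats (17.5%) and 3 for LPS in sham rats (14.6%), where 1 more was lower without overlap (15.3% of all genes). These counts leave out Serpinb2, which did not pass the low-count filter. The filter's level was 0.503 CPM, taken before TMM factors and so on another scale than the levels given here. Hgf and Mmp9 reached this level in all 4 libraries of both irradiated groups and of no sham group. They thus entered the test through the groups in which they were high. Mmp14 reached this level in all 4 libraries of both LPS groups, in 2 irradiated PBS libraries and in 1 sham PBS library. It thus entered through the LPS groups, in which it was high.

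**Figure D1:**
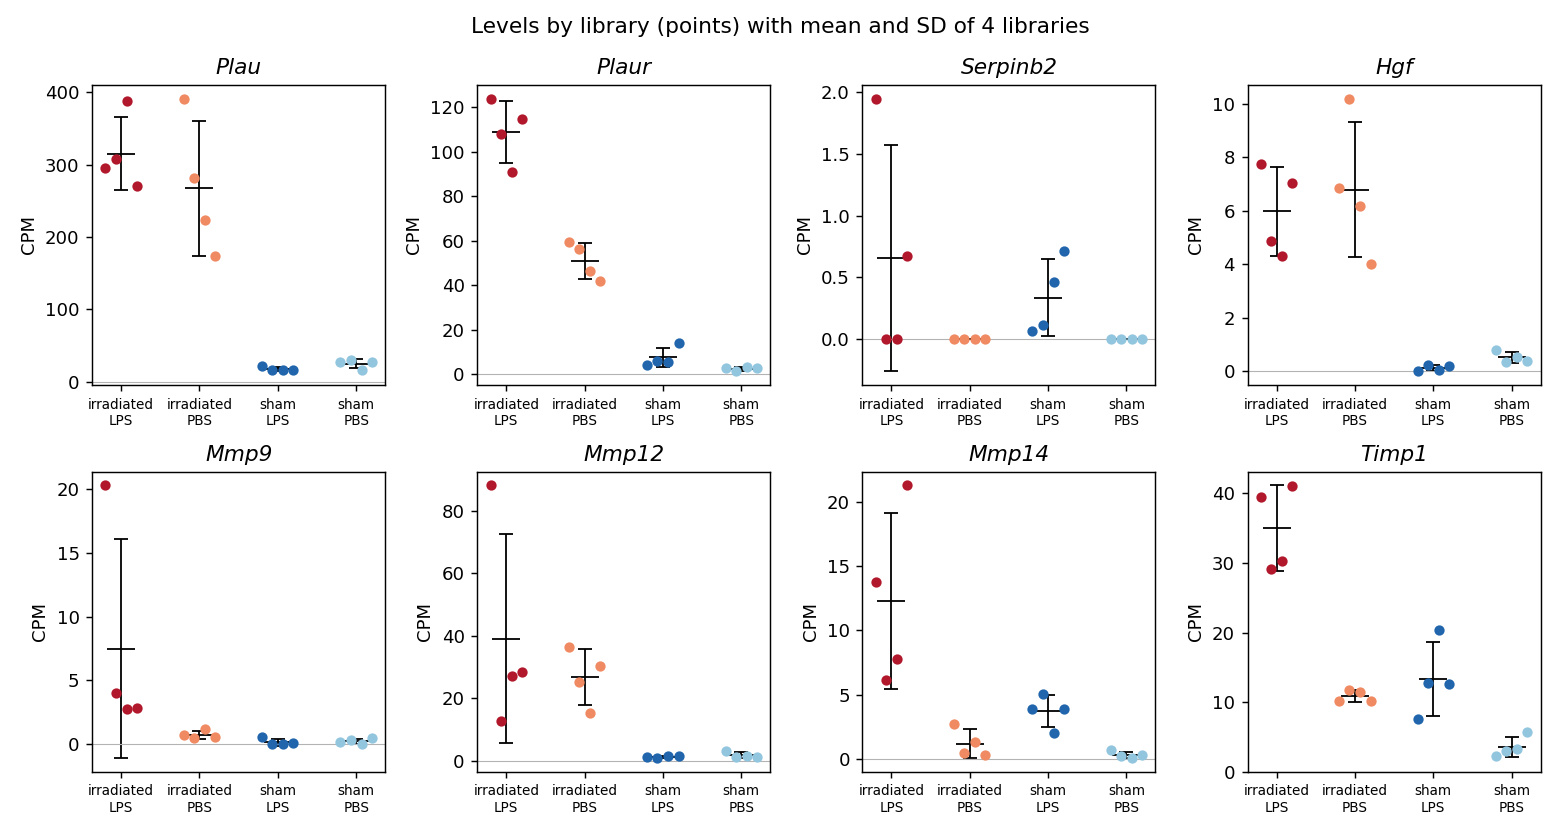
Level in CPM (linear y axes) of the 8 measured genes in each library (points), with the mean and SD of the 4 libraries in each group (bars), from irradiated LPS on the left to sham PBS on the right. Every irradiated library lies above every sham library for Plau, Plaur, Hgf and Mmp12, and Serpinb2 is at 0 in all 8 libraries given PBS.

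Plau (ENSRNOG00000010516, chromosome 15), the protease gene of the system, had 295, 307, 387 and 270 CPM in irradiated libraries 1 to 4 given LPS and 391, 281, 223 and 174 CPM in those given PBS, against 22.2, 15.9, 16.6 and 15.8 CPM in sham libraries given LPS and 27.1, 30.8, 16.4 and 27.4 CPM in those given PBS. All 8 irradiated libraries lay far above all 8 sham libraries, while LPS and PBS libraries overlapped within each irradiation group. The fitted log2 change was 3.39 ± 0.25 (SE) between irradiated and sham rats given PBS (10.5-fold, edgeR adjusted p = 1.31e-07) and 4.16 ± 0.26 between those given LPS (17.9-fold, edgeR adjusted p = 1.56e-08). LPS against PBS gave 0.24 ± 0.22 in irradiated rats (edgeR adjusted p = 0.473) and -0.53 ± 0.23 in sham rats (edgeR adjusted p = 0.106). Without sham PBS library 3, the lowest of its group, that sham difference was -0.69 with an edgeR adjusted p of 0.0298.

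Plaur (ENSRNOG00000037931, chromosome 1), which encodes the receptor, had 124, 108, 91.1 and 115 CPM in irradiated LPS libraries and 59.3, 56.1, 46.3 and 41.9 CPM in irradiated PBS libraries, against 4.19, 6.13, 5.67 and 14.0 CPM in sham LPS libraries and 2.68, 1.25, 3.18 and 2.62 CPM in sham PBS libraries. No 2 of the 4 groups overlapped, and their order from high to low was irradiated LPS, irradiated PBS, sham LPS and sham PBS. Plaur was 20.9-fold higher in irradiated than in sham rats given PBS (log2 4.38 ± 0.34, edgeR adjusted p = 2.31e-07) and 14.5-fold higher in those given LPS (log2 3.86 ± 0.32, edgeR adjusted p = 2.63e-07). LPS raised it 2.15-fold in irradiated rats (edgeR adjusted p = 0.00676) and 3.09-fold in sham rats (edgeR adjusted p = 0.00161). Unlike Plau, the receptor gene passed the test between LPS and PBS in both settings; the difference between the genes was not tested.

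Serpinb2 (ENSRNOG00000002460, chromosome 13), the gene of a serpin that inhibits urokinase, had 38, 0, 0 and 25 counts in irradiated LPS libraries and 0 in all 4 irradiated PBS libraries, against 1, 2, 8 and 13 counts in sham LPS libraries and 0 in all 4 sham PBS libraries. Its reads were thus found in 6 of 8 libraries given LPS and in 0 of 8 given PBS. The mean of 0.655 ± 0.918 CPM (SD, n = 4) in irradiated LPS libraries was at least 18.0-fold higher than the floor of irradiated PBS libraries, 3 counts over the group or 0.0364 CPM. Sham LPS libraries averaged 0.336 ± 0.309 CPM, at least 8.81-fold higher than the sham PBS floor of 0.0382 CPM. With no low-count filter, edgeR's adjusted p over 22190 genes was 0.0397 for LPS against PBS in irradiated rats and 0.0837 in sham rats, and 0.773 for irradiated against sham rats given LPS. Without irradiated LPS library 1 the mean of that group was 0.224 ± 0.388 CPM, and floors cover counting error only.

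Hgf (ENSRNOG00000007027, chromosome 4), the gene of hepatocyte growth factor, had 7.74, 4.87, 4.30 and 7.03 CPM in irradiated LPS libraries and 6.84, 10.2, 6.20 and 4.01 CPM in irradiated PBS libraries, against 0.00, 0.221, 0.0573 and 0.220 CPM in sham LPS libraries and 0.791, 0.349, 0.552 and 0.396 CPM in sham PBS libraries. Both irradiated groups overlapped each other and lay above both sham groups. Hgf was 13.0-fold higher in irradiated than in sham rats given PBS (log2 3.70 ± 0.47, edgeR adjusted p = 1.54e-05) and 45.1-fold higher in those given LPS (log2 5.50 ± 0.55, edgeR adjusted p = 7.24e-07). The sham LPS group held 9 counts in all, against 40 in the sham PBS group. In sham rats Hgf fell by 1.98 ± 0.58 on the log2 scale with LPS (edgeR adjusted p = 0.0157), a call that was lost with limma voom (-2.19, adjusted p = 0.178) and without sham LPS library 3 (-1.75, edgeR adjusted p = 0.0515). In irradiated rats the LPS difference was -0.19 ± 0.40 (edgeR adjusted p = 0.775).

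Mmp12 (ENSRNOG00000030187, chromosome 8) encodes macrophage elastase. It had 88.2, 12.9, 27.1 and 28.3 CPM in irradiated LPS libraries and 36.5, 25.1, 15.4 and 30.4 CPM in irradiated PBS libraries, against 1.09, 0.994, 1.49 and 1.54 CPM in sham LPS libraries and 3.22, 1.15, 1.61 and 1.34 CPM in sham PBS libraries. All irradiated libraries lay above all sham libraries, and LPS and PBS libraries overlapped in both settings. Mmp12 was 14.9-fold higher in irradiated than in sham rats given PBS (log2 3.89 ± 0.55, edgeR adjusted p = 0.000104) and 30.3-fold higher in those given LPS (log2 4.92 ± 0.58, edgeR adjusted p = 1.22e-05). Without irradiated LPS library 1 the second log2 value was 4.15 (edgeR adjusted p = 7.26e-07). LPS against PBS gave 0.54 ± 0.46 in irradiated rats (edgeR adjusted p = 0.424), or -0.24 without irradiated LPS library 1, and -0.49 ± 0.60 in sham rats (edgeR adjusted p = 0.587).

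Mmp9 (ENSRNOG00000017539, chromosome 3), the gene of gelatinase B, had 20.3, 3.99, 2.74 and 2.87 CPM in irradiated LPS libraries and 0.684, 0.499, 1.15 and 0.583 CPM in irradiated PBS libraries, against 0.546, 0, 0 and 0.0551 CPM in sham LPS libraries and 0.182, 0.349, 0 and 0.445 CPM in sham PBS libraries. Each irradiated LPS library lay above the other 12 libraries, and library 1 lay far above the rest of its own group, which averaged 3.20 ± 0.686 CPM (SD, n = 3) without it. Mmp9 was 49.4-fold higher in irradiated than in sham rats given LPS (log2 5.63 ± 1.06, edgeR adjusted p = 0.000633). That log2 value was 4.41 without irradiated LPS library 1 and 8.29 without sham LPS library 1, which held most of the 10 counts of its group. Between irradiated and sham rats given PBS the groups did not overlap, but the log2 change of 1.56 ± 0.96 did not pass the test (edgeR adjusted p = 0.285). LPS raised Mmp9 10.1-fold in irradiated rats (log2 3.34 ± 0.89, edgeR adjusted p = 0.0083), a call that was lost without irradiated LPS library 1 (log2 2.13, edgeR adjusted p = 0.0799), and gave -0.72 ± 1.13 in sham rats (edgeR adjusted p = 0.681).

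Neutrophil genes were highest in the same irradiated LPS library 1. Over 15 neutrophil markers the summed level was 2393, 605, 491 and 405 CPM in irradiated LPS libraries 1 to 4 and 230 to 305 CPM in irradiated PBS libraries, against 246 to 300 CPM in sham LPS libraries and 322 to 404 CPM in sham PBS libraries. Ctsg, Ltf and Mpo were at 0 in all 4 irradiated LPS libraries, and Ctsg and Mpo were at 0 in every library. With LPS against PBS, 8 of 9 tested neutrophil markers rose and 0 fell in irradiated rats (median log2 3.87), beside 17.0% and 14.5% of all genes. In sham rats 2 rose and 1 fell, beside 15.2% and 14.5%. Mmp8, the gene of a collagenase that neutrophils store and one of these markers, had 158, 28.2, 12.8 and 2.71 CPM in irradiated LPS libraries. The part of such cells in the Mmp9 and Mmp12 values of irradiated LPS library 1, or of the other irradiated LPS libraries, was not tested. Mmp25, which encodes a membrane-bound metalloproteinase, showed no such single library, with 45.9, 35.4, 47.7 and 54.7 CPM in irradiated LPS libraries and 3.17 to 5.41 CPM in irradiated PBS libraries, against 3.28 to 6.06 CPM in sham LPS libraries and 0.0920 to 1.16 CPM in sham PBS libraries. The part of neutrophils in the Mmp25 values was not tested either.

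**Figure D2:**
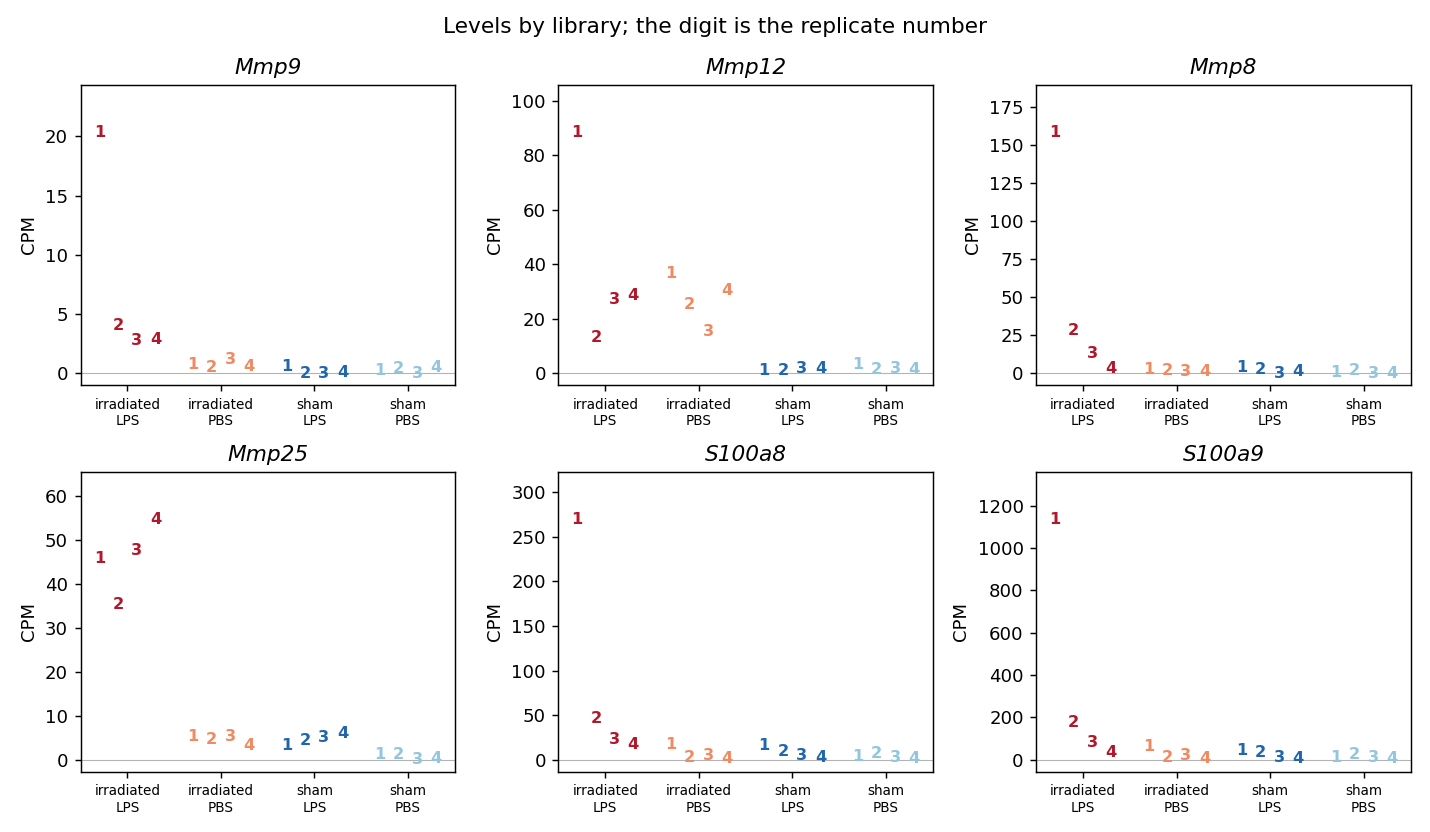
Level in CPM (linear y axes) of Mmp9, Mmp12, Mmp8, Mmp25, S100a8 and S100a9 in each library, drawn as its replicate number, from irradiated LPS on the left to sham PBS on the right. Irradiated LPS library 1 is the highest for every gene shown but Mmp25, with Mmp9 at 20.3 CPM, Mmp8 at 158 CPM and S100a9 at 1133 CPM.

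Mmp14 (ENSRNOG00000010947, chromosome 15) encodes a collagenase anchored in the cell membrane. It had 13.8, 6.18, 7.76 and 21.3 CPM in irradiated LPS libraries and 2.74, 0.444, 1.30 and 0.328 CPM in irradiated PBS libraries, against 3.88, 5.08, 2.01 and 3.91 CPM in sham LPS libraries and 0.669, 0.199, 0.0920 and 0.297 CPM in sham PBS libraries. Here LPS separated the libraries within each irradiation group, and irradiated and sham PBS libraries overlapped. LPS raised Mmp14 10.4-fold in irradiated rats (log2 3.38 ± 0.61, edgeR adjusted p = 0.000395) and 12.1-fold in sham rats (log2 3.60 ± 0.68, edgeR adjusted p = 0.000693). These log2 values were 4.15 without irradiated PBS library 1 and 4.22 without sham PBS library 1. Irradiation gave 1.94 ± 0.70 with PBS, which did not pass (edgeR adjusted p = 0.057), and 1.72 ± 0.56 with LPS (edgeR adjusted p = 0.0302). Of 26 alternatives, the first passed with DESeq2 (adjusted p = 0.013), with library totals (edgeR adjusted p = 0.0411) and with the replicate number as a block (0.0445). It also passed without irradiated LPS library 4 (edgeR adjusted p = 0.0494), irradiated PBS library 2 (0.0369) or 4 (0.0237) or sham PBS library 1 (0.0295), and in no other. With 1 library left out its log2 value ranged from 1.16 to 2.56 (edgeR adjusted p = 0.0237 to 0.27). The second was lost without irradiated LPS library 1 (edgeR adjusted p = 0.0607) or 4 (0.127), or without sham LPS library 1 (0.0602), 3 (0.0838) or 4 (0.062).

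Timp1 (ENSRNOG00000010208, chromosome X), the inhibitor gene, had 39.4, 29.1, 30.3 and 41.1 CPM in irradiated LPS libraries and 10.1, 11.7, 11.5 and 10.2 CPM in irradiated PBS libraries, against 7.53, 12.7, 20.3 and 12.6 CPM in sham LPS libraries and 2.25, 3.04, 3.27 and 5.69 CPM in sham PBS libraries. Irradiated LPS libraries were the highest and sham PBS libraries the lowest, while irradiated PBS and sham LPS libraries overlapped each other. Timp1 rose with irradiation by 1.61 ± 0.28 (3.04-fold, edgeR adjusted p = 0.000381) in rats given PBS and by 1.39 ± 0.26 (2.63-fold, edgeR adjusted p = 0.000594) in rats given LPS. LPS raised it 3.21-fold in irradiated rats (edgeR adjusted p = 9.36e-05) and 3.72-fold in sham rats (edgeR adjusted p = 6.09e-05).

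**Figure D3:**
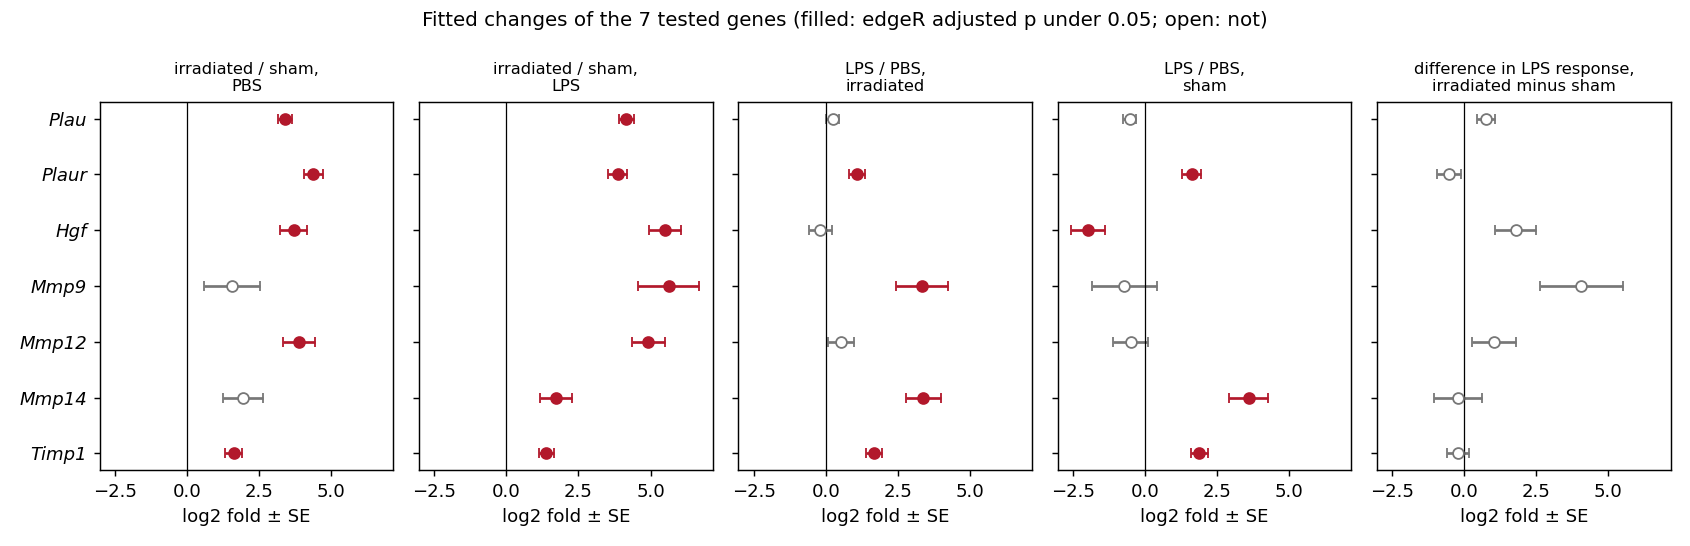
Fitted log2 fold change with its SE (x axes) of the 7 tested genes (rows) in each comparison (panels), filled where the edgeR adjusted p was under 0.05 and open otherwise. In irradiated against sham rats given LPS all 7 are filled and above 0, and in the difference between the LPS responses all 7 are open.

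The difference between the LPS responses of irradiated and sham rats was tested directly, and 0 of 7 members passed with edgeR, beside 1.26% of all genes: 83 rose and 88 fell, where scaling by library totals gave 63 and 162. An unadjusted p under 0.05 was reached by 3 members. Mmp9 had the largest difference, 4.06 ± 1.43 on the log2 scale (edgeR adjusted p = 0.234), followed by Hgf at 1.79 ± 0.71 (edgeR adjusted p = 0.298) and Plau at 0.76 ± 0.32 (edgeR adjusted p = 0.356). DESeq2 called 1 member, Mmp9 (4.07, adjusted p = 0.049), and edgeR called it without sham LPS library 1 (6.73, adjusted p = 0.0434). Mmp12 gave 1.03 ± 0.75, Plaur -0.53 ± 0.43, Mmp14 -0.22 ± 0.83 and Timp1 -0.21 ± 0.38, none past the edgeR threshold, and a missed threshold does not show that the responses were alike.

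In the wider plasminogen system, genes were called in both directions after irradiation. Of 16 tested genes of a list of 20, 3 rose and 3 fell between irradiated and sham rats given PBS (median log2 0.66), beside 11.5% and 9.91% of all genes. Between those given LPS, 6 rose and 2 fell (median 0.64), beside 15.1% and 12.6% of all genes. Anxa2, whose product annexin A2 binds plasminogen activators at the cell surface, averaged 71.5 ± 5.64 CPM in irradiated PBS libraries and 13.4 ± 4.75 CPM in sham PBS libraries (SD, n = 4 each), a log2 change of 2.41 ± 0.32 (edgeR adjusted p = 6.71e-05). Igf2r, a receptor that binds uPAR and plasminogen, rose by 2.87 ± 0.37 in the same comparison (edgeR adjusted p = 1.93e-05). Lrp1, an uptake receptor of the cell surface, fell by 0.67 ± 0.14 (edgeR adjusted p = 0.0024), and Mrc2, a collagen receptor that associates with uPAR, fell by 1.31 ± 0.30 (edgeR adjusted p = 0.00518).

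The substrate gene Plg had 0 counts in irradiated LPS libraries and 3 in irradiated PBS libraries, against 0 in both sham groups. Plat, the gene of tissue plasminogen activator, was added after its values were seen. It gave 0.72 ± 0.41 and -0.18 ± 0.40 for irradiation with PBS and LPS, neither past the threshold (edgeR adjusted p = 0.251 and 0.79), and rose with LPS in sham rats by 1.63 ± 0.42 (edgeR adjusted p = 0.00614). F3, the gene of tissue factor, rose with LPS by 5.94 ± 0.55 in irradiated rats and by 4.52 ± 0.55 in sham rats (edgeR adjusted p = 2.6e-07 and 7.83e-06).

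Around Hgf, 4 of 9 genes for its activation and reception were tested, and 3 of them rose in irradiated rats given PBS and 0 fell, beside 11.5% and 9.91% of all genes. Cd44, a co-receptor of MET, averaged 26.6 ± 2.79 CPM in irradiated PBS libraries and 4.27 ± 1.05 CPM in sham PBS libraries (log2 2.64 ± 0.28, edgeR adjusted p = 2.89e-06). St14, the gene of matriptase, which cuts the HGF precursor, rose by 0.55 ± 0.16 (edgeR adjusted p = 0.019), a call lost without irradiated PBS library 1 (0.0641) or 2 (0.0587) or sham PBS library 1 (0.0637). Spint1, which encodes an inhibitor of HGF-activating proteases, fell by 0.65 ± 0.11 (edgeR adjusted p = 0.000217), and its relative Spint2 rose by 0.56 ± 0.10 (edgeR adjusted p = 0.000329). The receptor gene Met was not tested and held 87 counts in the irradiated LPS group, 50 of them in 1 library, and 0 in the irradiated PBS group, against 0 in the sham LPS group and 2 in the sham PBS group.

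Of 8 other metalloproteinase genes tested among 19, 1 rose and 2 fell between irradiated and sham rats given PBS, with a median log2 change of -0.26. Of all genes 11.5% rose and 9.91% fell in this comparison, so the count is no result about the family. Mmp25 rose by 2.78 ± 0.42 (edgeR adjusted p = 0.000111), and Mmp28, the gene of epilysin, averaged 18.8 ± 4.63 CPM in irradiated PBS libraries and 75.6 ± 8.93 CPM in sham PBS libraries (log2 -2.01 ± 0.21, edgeR adjusted p = 1.43e-06). Among 13 tested cathepsins, lysosomal proteases, 1 rose and 7 fell, with Ctss at -0.74 ± 0.09 (edgeR adjusted p = 1.56e-05). Of 12 tested protease inhibitors 5 rose and 2 fell, and Cst3, the gene of the cathepsin inhibitor cystatin C, fell by 1.09 ± 0.10 (edgeR adjusted p = 3.73e-07).

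Of 30 tested genes of other secreted senescence factors, 12 rose and 1 fell in irradiated rats given PBS (median log2 1.32), beside 11.5% and 9.91% of all genes, and 15 rose and 1 fell in those given LPS, beside 15.1% and 12.6%. With LPS against PBS, 21 rose and 0 fell in irradiated rats, beside 17.0% and 14.5% of all genes. In sham rats 20 rose and 2 fell, beside 15.2% and 14.5%. Axl, a receptor tyrosine kinase shed from cells, averaged 470 ± 112 CPM in irradiated PBS libraries and 58.7 ± 11.6 CPM in sham PBS libraries (log2 3.00 ± 0.23, edgeR adjusted p = 2.32e-07). Of 13 genes that mark the senescent state itself, 4 rose and 0 fell in irradiated against sham rats given PBS (median log2 0.27). Of all genes 11.5% rose and 9.91% fell in that comparison. Among the 4 was the cell cycle inhibitor gene Cdkn1a, at 44.6 ± 16.0 CPM in irradiated PBS libraries and 3.79 ± 0.965 CPM in sham PBS libraries (log2 3.57 ± 0.27, edgeR adjusted p = 9.57e-08). Another of the 4, Lmnb1, encodes lamin B1, which senescent cells are known to lose. It averaged 4.75 ± 1.84 CPM in irradiated PBS libraries and 1.60 ± 0.172 CPM in sham PBS libraries (log2 1.57 ± 0.34, edgeR adjusted p = 0.00234). Cdkn2a, the gene of another cell cycle inhibitor and also among the 4 that rose, was low throughout. Its means were 0.462 CPM in irradiated LPS libraries and 0.509 CPM in irradiated PBS libraries, against 0.00 CPM in sham LPS libraries and 0.0152 CPM in sham PBS libraries. Its log2 change with PBS was 3.91 to 6.65 over 25 alternatives, a range resting on sham levels near 0. These lists were written with earlier results of these data known, and their counts describe the listed genes.

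**Figure D4:**
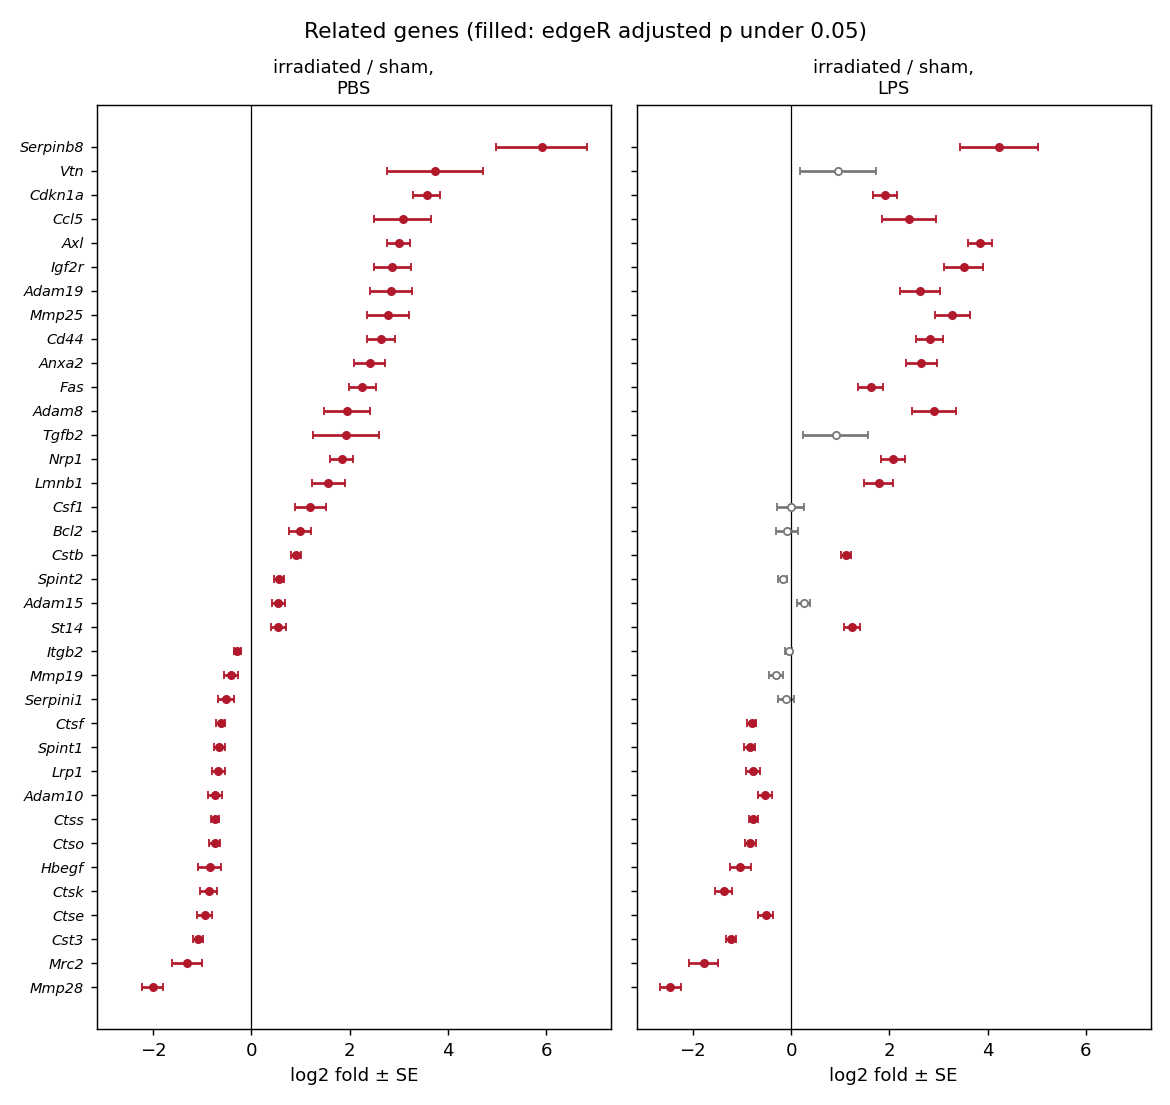
Fitted log2 fold change with its SE (x axes) of 36 related genes (rows) between irradiated and sham rats given PBS (left) and LPS (right), with filled points for an edgeR adjusted p below 0.05. The genes shown passed the test in the left panel and were taken from the genes of smallest p in each related list. Cxcl1 and Cdkn2a also passed but are not drawn. The genes stand in the order of the left change and lie on both sides of 0. Mmp28 is at -2.01 and Igf2r at 2.87 in irradiated against sham rats given PBS.

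Genes most like each member were found from Pearson's r of log2 CPM over the 16 libraries, which share 4 groups, and are given as a description. For Plau they were Gpnmb (0.987), Cybb (0.985) and Axl (0.981), for Plaur the ribosomal protein genes Rpl26 (0.979) and Rps3 (0.979), and for Hgf RT1-Db1 (0.982), Ly49si2 (0.978) and S100a11 (0.975). The nearest genes to Mmp12 were Anxa6 (0.975), Dok3 (0.962) and Clec12a (0.958). Mmp9 had lower values, with Myo1g (0.925), Serpinb1a (0.915) and Nfat5 (0.895). For Mmp14 they were AABR07021955.1 (0.942), Mefv (0.940) and Sdc4 (0.937), and for Timp1 Atf3 (0.980), Prf1 (0.970) and Slc28a2 (0.969). Reads of close paralogs, among them the RT1, Ly49 and ribosomal protein genes, may be split between copies.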

How the data were processed

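Raw read counts per Ensembl gene were deposited by the authors for 16 libraries. Per the submitters' processing notes, the tools were HTSeq 2.0.2, fastp 0.23.2 and FastQC 0.11.9, and the build was mRatBN7.2. The aligner, the annotation release and whether counting used strand: not given in the sources used here. Antisense and paralogous reads may be shared. Counts for 30560 gene IDs, 6518 of them without a symbol, were fitted in R 4.3.3 with edgeR 4.0.16 (TMM, filterByExpr, robust quasi-likelihood, 1 coefficient per group, all 16 libraries), and p-values were adjusted by Benjamini-Hochberg over 13608 genes. The code was tested on simulated data. Each SE was obtained by dividing the log2 change by the square root of F. Every member was described. Other genes named were taken from the 4 of smallest p in each related list, in irradiated against sham rats given PBS or in the difference in LPS response; not all of these are given. The 3 most alike genes (mean log2 CPM of at least 3, prior count 2) were named, except 1 gene that is not reported here. Plg, Met, Plat, Mmp8 and the neighbours of Mmp12 were named outside this rule, after their values were seen. The members and lists were chosen with earlier results of these data known. Promoters and gene chromosomes (GRCr8) came from RefSeq. Alternatives included DESeq2 1.42.0, limma 3.58.1 (voom), other scalings and filters, a replicate block and leaving out libraries. Depth ranges stand in the text, and floors use 3 counts.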

Additional observations from a re-analysis of the deposited data

Results flagged for a closer look

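In groups of 4 libraries, 30 groups were checked for a library far from the others, and chance marks about 1 group in 20. For Plau, sham LPS library 1 stood above its group at 22.2 CPM, against 15.8 to 16.6 CPM in the other 3. For Mmp9, irradiated LPS library 1 stood apart at 20.3 CPM, and sham LPS library 1 at 0.546 CPM, against 0 to 0.0551 CPM in the other 3.

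In some related genes the LPS response differed between irradiated and sham rats by edgeR's test of the difference itself. In each related list most tested genes did not pass this test, and 1.26% of all genes did. The genes below are those of the lists that passed. Itgav, the gene of the integrin alpha V chain, differed by -1.07 ± 0.16 (log2, edgeR adjusted p = 0.00199), with 138 ± 6.20 CPM in irradiated LPS and 165 ± 12.4 CPM in irradiated PBS libraries, against 279 ± 55.4 CPM in sham LPS and 158 ± 9.22 CPM in sham PBS libraries. Serpinb9, the gene of a granzyme B inhibitor, differed by 1.41 ± 0.12 (edgeR adjusted p = 1.63e-05), with 99.6 ± 7.08 and 44.4 ± 3.12 CPM in irradiated LPS and PBS libraries, against 33.9 ± 0.841 and 40.0 ± 2.99 CPM in sham LPS and PBS libraries. Serpinb1a, a serpin gene, differed by 1.65 ± 0.25 (edgeR adjusted p = 0.00365), Adam9, a sheddase gene, by 0.61 ± 0.13 (edgeR adjusted p = 0.0209) and Spint2 by -0.73 ± 0.13 (edgeR adjusted p = 0.00973). Cdkn1a differed by -1.66 ± 0.35 (edgeR adjusted p = 0.0267), with 72.8 ± 13.5 and 44.6 ± 16.0 CPM in irradiated LPS and PBS libraries, against 19.4 ± 4.27 and 3.79 ± 0.965 CPM in sham LPS and PBS libraries. The Cdkn1a difference was -1.50 with limma voom (adjusted p = 0.202), and its edgeR adjusted p was 0.0545 to 0.0713 without irradiated LPS library 2 or 4, irradiated PBS library 4, sham LPS library 2, or sham PBS library 2, 3 or 4. The Adam9 difference was 0.56 to 0.59 (edgeR adjusted p = 0.0504 to 0.0543) without irradiated LPS library 4, irradiated PBS library 3 or 4, or sham PBS library 2.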

How the results depend on the processing

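Of 935 values of member fold changes under 27 alternatives, 907 kept their direction and their side of the threshold, 10 newly passed, 9 no longer passed and 9 reversed; the cause was not tested. No reversed value passed the threshold. The Mmp14 difference in LPS response was 0.05 with limma voom, 0.02 without irradiated LPS library 2, 0.55 without irradiated PBS library 1, 0.11 without sham PBS library 3 and 0.50 without both irradiated libraries numbered 1. With 1 library left out it ranged from -0.84 to 0.55. LPS against PBS in irradiated rats ranged from -0.24 (without irradiated LPS library 1) to 0.83 for Mmp12, with -0.06 without both libraries numbered 1, and from -0.37 to 0.08 (without irradiated PBS library 2) for Hgf. The Timp1 difference in LPS response ranged from -0.53 to 0.07, the last without sham LPS library 3. Leaving out both libraries numbered 1 also ended the Mmp9 call for LPS in irradiated rats (2.11, edgeR adjusted p = 0.13).

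Members called numbered 5 to 6 in irradiated against sham rats given PBS when 1 library was left out, 6 to 7 in those given LPS, 3 to 5 for LPS in irradiated rats (the fifth being Serpinb2, which passed the filter with 13 of 16 libraries left out in turn and was called in 6), 3 to 5 for LPS in sham rats and 0 to 1 for the difference in LPS response, where DESeq2 called 1. Without both irradiated libraries numbered 1 the counts were 5, 7, 3, 4 and 0 in the same order. Among all 16 libraries, Serpinb2 reached the filter's level in 2 irradiated LPS libraries, in 1 sham LPS library and in 0 PBS libraries. Where it passed the filter, it thus entered the test through the groups in which it was high, and its calls are no added support. Of all genes, the difference in LPS response gave 171 calls, against 427 with DESeq2, 98 without both libraries numbered 1, and 103 to 113 without irradiated LPS library 4, irradiated PBS library 3 or 4, or sham PBS library 1 or 3. Deviations from the group means correlated weakly between same-numbered libraries of different groups (24 pairs, r from -0.09 to 0.40, median 0.08, 22 above 0 and 8 over 0.1; median -0.03 in 72 pairs of different numbers). On average over the other groups, 13 of 16 libraries correlated best with their own number, a hint from the data and not from the labels. With the replicate block Mmp14 in irradiated against sham rats given PBS was 1.94 (edgeR adjusted p = 0.0445), the one member call it changed. For other named genes only the 159 results that passed in the main fit were followed, so a new pass could not be recorded. These results kept direction in all 4279 values, and 213 values no longer passed. Most of these genes were named for a small p in these same data, so the kept direction is a description. Depth limits values resting on few counts: Serpinb2 in every group, Hgf and Mmp9 in sham rats, and Mmp14 in sham PBS libraries (23 counts).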

Other observations

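Mmp12 stands in RefSeq order among Mmp13, Mmp1b, Mmp3, Mmp1, Mmp10, Mmp8, Mmp27, Mmp20 and Mmp7 on chromosome 8. Counts here are raw sums over a group, not scaled for library totals, which reached their highest in irradiated LPS libraries. Mmp12 held 4441 counts in irradiated LPS and 2193 in irradiated PBS libraries, against 90 in sham LPS and 138 in sham PBS libraries. Its scaled log2 change with LPS in irradiated rats was 0.54 (edgeR adjusted p = 0.424). Mmp8 held 5322 and 112 counts in irradiated LPS and PBS libraries, against 124 and 37 counts in sham LPS and PBS libraries. Irradiated LPS library 1 held 3075 of the 5322. Mmp13, which encodes a collagenase, held 20 and 7 counts in irradiated LPS and PBS libraries, against 0 in both sham groups, and Mmp7, which encodes matrilysin, held 48 and 14 counts against 27 and 0 counts in the same order of injections. Mmp1b, Mmp3, Mmp1 and Mmp10 had no count in any library.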
